A study of Mus musculus with 6 samples.

Results

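This account follows 36 genes of DNA replication and S phase in mouse splenic B cells labelled as deleted for Crebbp, a histone acetyltransferase also called CBP, and in B cells with the floxed gene. The genes were chosen by symbol through the array's annotation, and 35 of the 36 had a probe set assigned to 1 symbol, among 18193 genes tested. Chaf1a had none in the annotation used and has no value here. The 3 Crebbp-deleted mice carried the deleted allele (CBPΔ/Δ) and the 3 Crebbp-floxed mice an allele flanked by recombination sites (CBPF/F). All 6 also carried the EµBcl2 transgene, in which an enhancer active in B cells drives the survival gene Bcl2, and there is no group without it. The labels used here name neither the Cre line nor the age of the mice, and each mouse gave 1 Affymetrix array of B cells left after beads against CD43 had removed other cells from thawed, previously frozen spleen cells. Levels are log2 intensities, each gene is read by its brightest probe set over the 6 samples, and every difference is the Crebbp-deleted mean less the Crebbp-floxed mean. Levels of different probe sets are not on a common scale and are not ranked as transcript amounts.

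A cell prepares to copy its genome in G1, when the origin recognition complex, Cdc6 and Cdt1 load the Mcm2-7 helicase onto DNA, a step called licensing. At the start of S phase the helicase is switched on by Cdc45, the GINS complex and Mcm10, and polymerases held by the Pcna clamp copy both strands. Many of these genes are targets of E2F transcription factors, which cyclin E and its partner kinase release from the RB proteins, so in a resting population such as splenic B cells their mRNA is known to follow the share of cells that have entered the cycle.

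Promoter sequences of these genes were read for short words that match E2F sites. RefSeq promoter windows (GRCm38.p6, 250 bases before to 50 after each start) were found for 29 of the 36 genes, 34 windows in all, and were searched on both strands for the 4 E2F words TTTCCCGC, TTTCGCGC, TTTGCCGC and TTTGGCGC, which may overlap one another. At least 1 word lay in 11 of the 34 windows, 32.4%, against 2.26% of all 32851 windows. The windows compared were not matched for base content, and the cause of the unequal shares was not tested. Stretches of 30 bases are shown for 7 of the 11 genes with a word: the only gene past the test (Cdt1), those with no overlap between the groups (Rfc3, Pola1, Mcm5), a subunit with overlapping words (Mcm6), and genes with a large spread within groups (Cdc6, Uhrf1). A word was not a general mark of such genes: Fen1, whose groups did not overlap either, and Rrm2, Mcm10 and Tk1, which varied widely within groups, had windows with 0 words. Capitals mark the E2F words, in either orientation, and each stretch is written 5′ to 3′ along the gene.
Cdt1, chr8:122568035-122568064, plus strand: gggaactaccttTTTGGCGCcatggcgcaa
Rfc3, chr5:151651197-151651226, minus strand: tcgcacgcTTTCGCGCtcGCGGGAAAactc
Pola1, chrX:93632272-93632301, minus strand: atcacaggGCGCCAAAtgcactcccgcggg
Mcm5, chr8:75109348-75109377, plus strand: ccaagaacTTTCGCGCCAAAacgtccagcc
Mcm6, chr1:128359794-128359823, minus strand: cgtatgctTTTGGCGCGAAAagtgcgtgcg
Cdc6, chr11:98908005-98908034, plus strand: ggtggagaGCGGGAAAtcgcctggggtctg
Uhrf1, chr17:56304120-56304149, plus strand: gagtcgggTTTCGCGCgcccaggcgtctcc
In Mcm5 and Mcm6 a pair of words in opposite orientation overlap, and in Cdt1 the word begins at base 33, counting the start as 1. In Rfc3 1 word ends 3 bases before the start and another begins at it.

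Crebbp takes its name from CREB, which binds the cyclic AMP response element TGACGTCA. That element lay in 1 of the 34 windows of replication genes, 2.94%, against 1.79% of all windows. The 1 window was that of Mcm5, and the 250 bases before its start are set beside those of Cdt1, with capitals marking any E2F word or cyclic AMP response element.
Mcm5, chr8:75109259-75109508, plus strand: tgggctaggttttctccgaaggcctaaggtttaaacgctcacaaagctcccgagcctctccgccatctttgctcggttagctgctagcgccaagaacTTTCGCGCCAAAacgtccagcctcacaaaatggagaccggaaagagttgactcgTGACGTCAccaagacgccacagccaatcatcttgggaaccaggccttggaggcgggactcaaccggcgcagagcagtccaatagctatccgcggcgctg
Cdt1, chr8:122567765-122568014, plus strand: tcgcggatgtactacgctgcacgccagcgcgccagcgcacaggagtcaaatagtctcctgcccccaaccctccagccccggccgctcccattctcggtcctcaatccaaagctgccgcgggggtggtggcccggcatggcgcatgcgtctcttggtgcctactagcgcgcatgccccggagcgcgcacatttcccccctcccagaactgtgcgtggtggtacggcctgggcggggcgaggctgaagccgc
Before its start Cdt1 has neither set of letters, so its only E2F word is the one shown in the 30 bases above. A match describes the sequence and was not tested as a binding site.

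The 6 arrays had near-equal medians, from 4.27 to 4.30, and their number limits the precision of every value. Crebbp itself read 9.59, 9.41 and 9.35 in deleted samples 1 to 3, against 10.04, 9.87 and 9.95 in floxed samples 1 to 3, so the groups did not overlap (log2 difference −0.50, limma adjusted p = 0.078). The level was 1.42-fold lower in deleted samples, and the deletion is taken from the labels. Where its probes lie relative to the deleted part was not analysed here. Floxed sample 3 stood apart from the other floxed samples in replication genes. For the listed replication genes, differences that moved by over 1.5 times or turned sign without it are given with and without it. For genes of the wider pathway and of other lists, differences are given with all 6 samples only. In bulk RNA a smaller share of cycling cells and less of a transcript per cell cannot be told apart.

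Of the 35 replication genes Cdt1 fell in Crebbp-deleted B cells and the others did not pass the test (limma, Benjamini-Hochberg adjusted p under 0.05 over all 18193 genes). The background is low too: 0.781% of all genes passed, 0.236% lower and 0.544% higher. Of the 35 differences 24 were negative and 11 positive, with a median of −0.13, where the median of all genes was 0.01. At an unadjusted p under 0.05 there were 6 of 35 genes, all 6 lower. This is 17.1% of the 35, beside 14.8% of all genes in either direction and 6.84% lower. The same 6, Cdt1, Rfc3, Fen1, Pola1, Mcm5 and Gins1, had all deleted samples below all floxed samples, and in 0 genes did they lie above. Over all genes 21.2% had groups that did not overlap, and 10% had the deleted samples below. The share with non-overlapping groups was thus below the background for both directions together and above it for the lower direction. The background holds many dim genes. In a fit of only the 10589 genes brighter than the median probe set, 20% had an unadjusted p under 0.05 in either direction. Of the replication genes in that fit, 5 of 32 had such a p, all 5 lower. The negative median was small and moved with sample 3 of each group. Without floxed sample 3 the median of the 35 differences was 0.05, with 17 negative and 18 positive, and without deleted sample 3 it was −0.20, with 32 negative and 3 positive. Without sample 3 of both groups, a setting chosen after seeing the data, it was −0.04, with 19 negative and 16 positive.

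**Figure D1:**
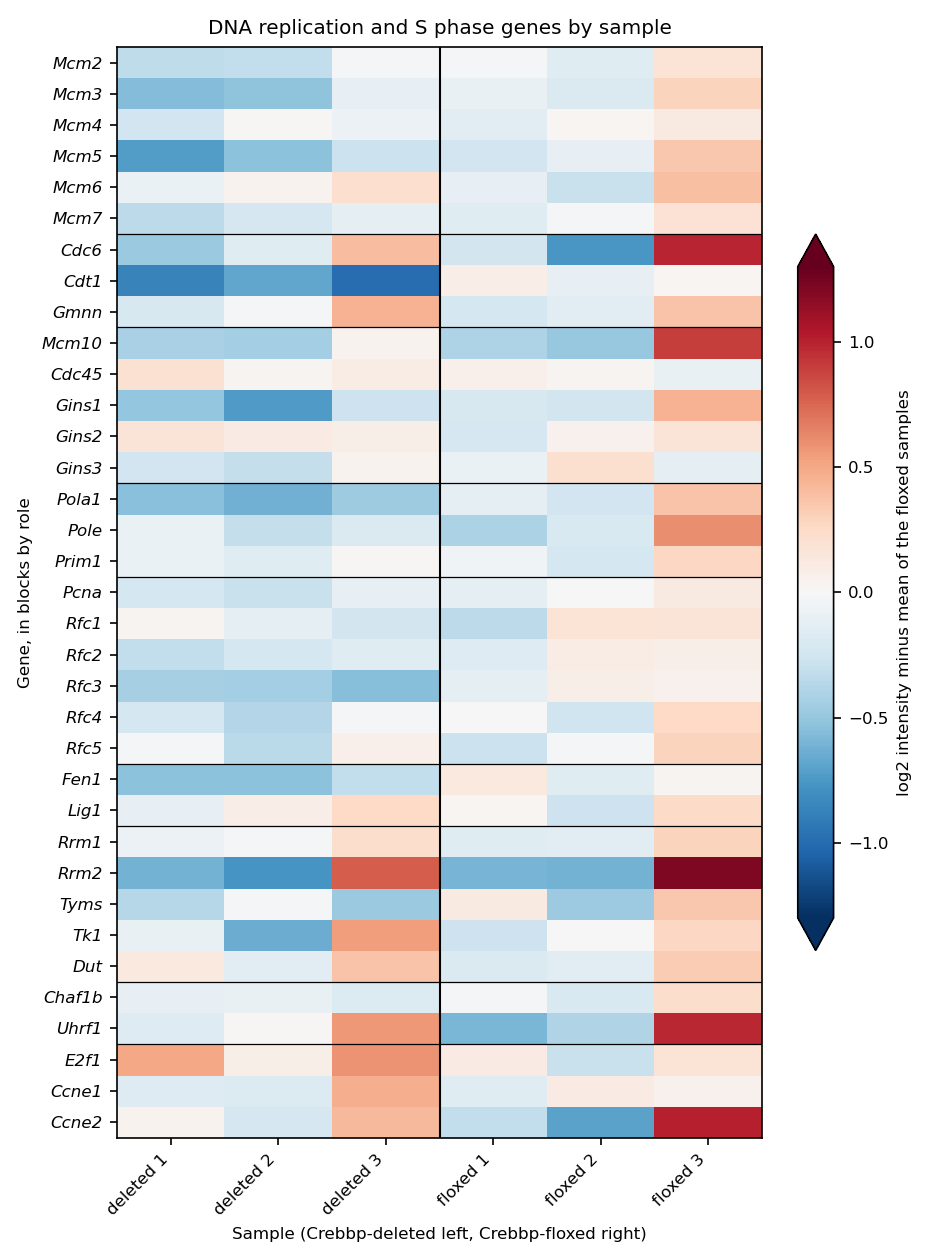
Heat map of 35 replication and S phase genes (rows, in blocks by role) in the 3 Crebbp-deleted samples (left) and the 3 Crebbp-floxed samples (right); colour is the log2 intensity minus the mean of the floxed samples. The right-hand column, floxed sample 3, holds the highest value of the 6 samples in 22 of the 35 genes, and in the Cdt1 row all deleted samples lie below all floxed samples.

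Among the licensing factors Cdt1, which brings the Mcm2-7 helicase to origins and is destroyed once S phase begins, read 9.46, 9.65 and 9.33 in deleted samples 1 to 3, against 10.41, 10.22 and 10.35 in floxed samples 1 to 3. All deleted samples lay well below all floxed samples, and sample 3 was the highest of neither group. The means were 9.48 ± 0.16 in deleted and 10.33 ± 0.10 in floxed samples (SD, n = 3 each), a log2 difference of −0.84 ± 0.11 (SE) or 1.79-fold lower (95% interval −1.11 to −0.58, limma adjusted p = 0.028). Of the 3 probe sets of Cdt1 a second bright one had a difference of −0.70 without overlap, and the third gave 0.12 at a mean of 2.29, dimmer than the median probe set at 4.29. The call was not stable. It was lost without deleted sample 1, 2 or 3 (adjusted p = 0.131, 0.0502 and 0.0694) and without floxed sample 1 (0.123), and with sex as a term (−0.82, adjusted p = 0.0808). Within males the difference was −1.02 and within females −0.63, with 1 sample in a group of each (2 deleted against 1 floxed male, 1 deleted against 2 floxed females), so these are given as values only. The mean of the 3 probe sets gave −0.48, which did not pass (limma adjusted p = 0.107).

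Gmnn, or geminin, the protein that binds Cdt1 and blocks a second round of licensing, did not pass. It read 6.92, 7.10 and 7.57 in deleted samples, against 6.89, 6.97 and 7.49 in floxed samples, with a difference of 0.08 (95% interval −0.42 to 0.57), and 0.26 without floxed sample 3. In Gmnn sample 3 was the highest of each group, and the groups overlapped fully. Cdc6, the ATPase that loads the helicase together with Cdt1, was dim, with 3.39, 3.71 and 4.27 in deleted samples, against 3.63, 3.12 and 4.86 in floxed samples. Its SD of 0.45 in deleted and 0.90 in floxed samples was larger than its difference of −0.08, which was 0.42 without floxed sample 3.

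Of the 6 subunits of the Mcm2-7 helicase 0 passed limma's test and 1, Mcm5, had an unadjusted p under 0.05; 5 of the 6 differences were negative, with a median of −0.23. Mcm5 read 8.35, 8.54 and 8.79 in deleted samples, against 8.82, 8.96 and 9.42 in floxed samples. The groups did not overlap but nearly touched, and the difference of −0.51 ± 0.18 (SE) had a limma adjusted p of 0.251. It was −0.33 without floxed sample 3. A second bright probe set of Mcm5 gave −0.62 and did not overlap either. Mcm3 read 7.32, 7.36 and 7.77 in deleted samples, against 7.78, 7.69 and 8.17 in floxed samples, a difference of −0.40 with overlap at deleted sample 3 (limma adjusted p = 0.340), and −0.25 without floxed sample 3. Its 5 probe sets divided into 4 lower and 1 higher. Among the lower ones, differences of −0.56 and −0.36 came without overlap, and another of −0.48 with overlap. The higher one gave 0.01.

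Mcm7 had 8.71, 8.82 and 8.91 in deleted samples, against 8.88, 9.01 and 9.23 in floxed samples, and Mcm2 had 7.45, 7.46 and 7.76 in deleted samples, against 7.76, 7.62 and 7.96 in floxed samples. In each the upper deleted sample reached into the floxed range, and the differences of −0.23 and −0.22 did not pass. Mcm4 differed by −0.10 and Mcm6 by 0.06, with 95% intervals of −0.37 to 0.16 and −0.36 to 0.48. Without floxed sample 3 the differences were −0.13 for Mcm7, −0.13 for Mcm2, −0.04 for Mcm4 and 0.26 for Mcm6. In all 6 subunits floxed sample 3 was the highest of the 6 samples. Since the 6 proteins form 1 ring in equal parts, their mean per sample is also given: 8.22, 8.34 and 8.53 in deleted samples, against 8.47, 8.47 and 8.85 in floxed samples.

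Of the 5 genes of origin firing 0 passed limma's test and 1, Gins1, had an unadjusted p under 0.05. Gins1, a subunit of the GINS complex that binds the active helicase, read 4.22, 3.98 and 4.45 in deleted samples, against 4.51, 4.48 and 5.17 in floxed samples. The groups were separated by a narrow gap, at levels close to the median probe set, and the difference of −0.50 ± 0.21 (SE) did not pass (limma adjusted p = 0.319). It was −0.28 without floxed sample 3. Its partners Gins2 and Gins3 had differences of 0.11 and −0.17 (0.20 for Gins2 without floxed sample 3), and 1 of the 2 probe sets of Gins2 was lower and the other higher. Cdc45, the third part of the active helicase, ranged only from 5.18 to 5.34 in deleted samples and from 5.05 to 5.22 in floxed samples, with a difference of 0.11 (95% interval −0.11 to 0.33) and 0.06 without floxed sample 3. Its other probe set, dimmer but above the median signal, went the other way, with −0.05. That probe set read 4.37, 4.26 and 4.77 in deleted samples, against 4.25, 4.14 and 5.17 in floxed samples. Mcm10, which helps start the fork, read 4.31, 4.30 and 4.79 in deleted samples, against 4.34, 4.25 and 5.64 in floxed samples. Apart from floxed sample 3 and, less so, deleted sample 3, Mcm10 lay at one level in both groups. Its difference was −0.27 with all samples and 0.17 without floxed sample 3.

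All 3 polymerase and primase genes had negative differences, and 0 passed limma's test. Without floxed sample 3 the differences of Pole (0.11) and Prim1 (0.06) were positive, and that of Pola1 stayed negative. Pola1, the catalytic subunit of the polymerase that starts each new strand, read 5.56, 5.49 and 5.65 in deleted samples, against 5.98, 5.86 and 6.49 in floxed samples. The groups did not overlap, and the difference of −0.54 ± 0.16 (SE) was the only one of the 3 with an unadjusted p under 0.05 (0.012, limma adjusted p = 0.189). The difference of Pola1 was −0.36 without floxed sample 3. Prim1, the primase that works in the same complex, ranged from 7.18 to 7.35 in deleted samples and from 7.11 to 7.60 in floxed samples, a difference of −0.08, and its 2 probe sets went opposite ways. Pole, the leading strand polymerase, ranged from 5.47 to 5.70 in deleted samples and from 5.38 to 6.39 in floxed samples, where floxed sample 3 was 0.90 above the mean of the other floxed samples.

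By the brightest probe set, all 6 genes of the sliding clamp and its loader had negative differences, from −0.48 to −0.10. The other probe sets of Rfc1, also bright, gave 0.12 and −0.08. Of the 6 genes 0 passed limma's test, and 1 had an unadjusted p under 0.05. That gene, Rfc3, a small subunit of the clamp loader, read 6.005, 6.003 and 5.883 in deleted samples, against 6.310, 6.519 and 6.495 in floxed samples. The gap between the groups exceeded the range within each, and the difference of −0.48 ± 0.10 (SE) came closest to the threshold after Cdt1 (limma adjusted p = 0.078). The second probe set of Rfc3 gave −0.29 without overlap. Without floxed sample 3 the difference of Rfc3 was −0.45, so it did not rest on that sample.

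Pcna, the ring that holds polymerases on DNA, read 10.41, 10.35 and 10.53 in deleted samples, against 10.52, 10.64 and 10.75 in floxed samples. The groups overlapped slightly, and the difference of −0.21 did not pass (limma adjusted p = 0.396). Rfc2 read 8.31, 8.39 and 8.46 in deleted samples, against 8.46, 8.71 and 8.69 in floxed samples, a difference of −0.23 with the groups meeting at 8.46. Dimmer probe sets of Rfc2 gave −0.34 without overlap and −0.35 with overlap. The other loader subunits Rfc1, Rfc4 and Rfc5 overlapped, with differences of −0.11, −0.21 and −0.10. These were −0.02 for Rfc1, −0.08 for Rfc4 and 0.05 for Rfc5 without floxed sample 3.

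On the lagging strand Fen1, the nuclease that trims the flap between Okazaki fragments, read 7.73, 7.73 and 7.94 in deleted samples, against 8.39, 8.10 and 8.30 in floxed samples. The groups did not overlap, and the difference of −0.46 ± 0.11 (SE) had a limma adjusted p of 0.124. Its other probe set gave −0.70, also without overlap. Lig1, the ligase that seals the trimmed ends, did not pass. It ranged from 6.85 to 7.21 in deleted samples and from 6.69 to 7.21 in floxed samples, a difference of 0.08 (95% interval −0.29 to 0.44) and 0.20 without floxed sample 3.

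None of the 5 genes of nucleotide supply passed limma's test, and 0 had an unadjusted p under 0.05. Rrm2, the subunit of ribonucleotide reductase that is made in S phase, had the largest spread of all 35 genes. It read 5.72, 5.58 and 7.13 in deleted samples, against 5.74, 5.72 and 7.56 in floxed samples. In each group samples 1 and 2 were alike and sample 3 was higher, so the SDs were 0.86 in deleted and 1.05 in floxed samples and the difference of −0.20 had a 95% interval from −1.56 to 1.16. The difference of Rrm2 was 0.41 without floxed sample 3. Rrm1, the large subunit, ranged only from 7.66 to 7.97 in deleted and from 7.58 to 8.02 in floxed samples, a difference of 0.05 (0.19 without floxed sample 3). Tk1, the salvage kinase for thymidine, read 5.61, 5.06 and 6.25 in deleted samples, against 5.43, 5.71 and 5.97 in floxed samples, with the wider spread in the deleted group (SD 0.60, against 0.27 in floxed). Dut, which removes dUTP, differed by 0.12, and Tyms, which makes dTMP, had 2.61, 2.96 and 2.51 in deleted samples, against 3.10, 2.52 and 3.34 in floxed samples. All 4 probe sets of Tyms lay below the median signal. The differences were 0.07 for Tk1, 0.29 for Dut and −0.12 for Tyms without floxed sample 3.

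Neither gene of chromatin assembly and maintenance methylation passed limma's test. Uhrf1, which guides the maintenance DNA methylase to new strands, read 5.69, 5.88 and 6.43 in deleted samples, against 5.27, 5.48 and 6.84 in floxed samples. Floxed sample 3 was the highest and the other floxed samples the lowest, so the small difference of 0.14 averaged over opposite positions. Without floxed sample 3 it was 0.63 (unadjusted p = 0.026, limma adjusted p = 0.273). Chaf1b, a subunit of the histone chaperone CAF-1, ranged from 4.65 to 4.73 in deleted samples and from 4.63 to 5.06 in floxed samples, a difference of −0.13 (−0.01 without floxed sample 3).

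All 3 genes of G1 to S control had positive differences and 0 passed limma's test, with 0 at an unadjusted p under 0.05. E2f1, the transcription factor that switches on many of the genes above, read 5.66, 5.23 and 5.74 in deleted samples, against 5.26, 4.87 and 5.34 in floxed samples. In E2f1 only deleted sample 2 lay within the floxed range, and the difference of 0.39 had a 95% interval from −0.02 to 0.80 (limma adjusted p = 0.362). Its second probe set, dimmer but above the median signal, gave only 0.16 with overlap. The third, below the median signal, gave −0.05. Ccne1, the first cyclin E, ranged from 5.40 to 6.05 in deleted samples and from 5.42 to 5.68 in floxed samples, a difference of 0.04 (0.07 without floxed sample 3). Its second probe set, of like brightness, gave 0.36 with all deleted samples above all floxed samples (unadjusted p = 0.051). Ccne2, the second, was dim and read 3.49, 3.23 and 3.87 in deleted samples, against 3.13, 2.76 and 4.46 in floxed samples. Its difference was 0.08 with all samples and 0.59 without floxed sample 3 (unadjusted p = 0.028, limma adjusted p = 0.282).

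**Figure D2:**
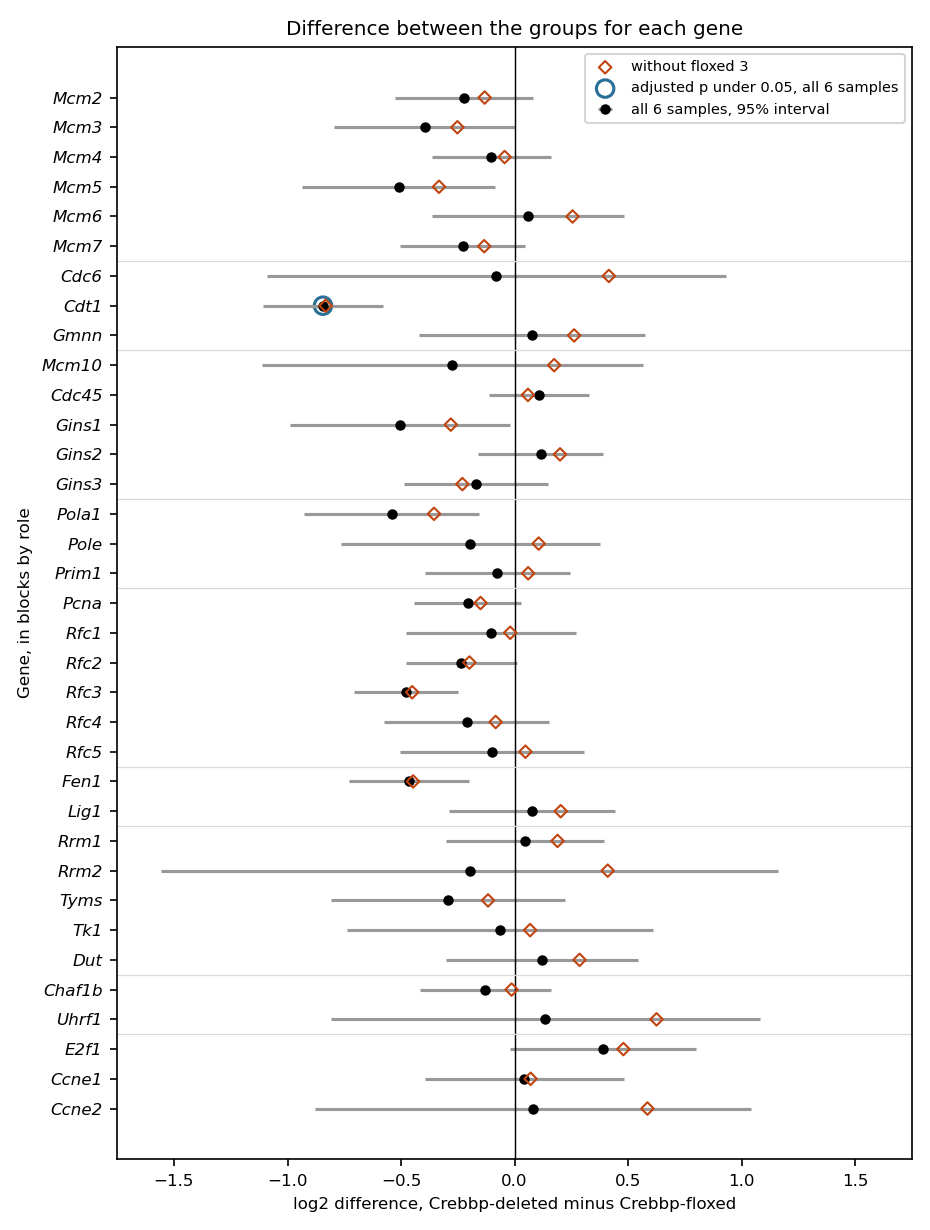
Log2 difference, Crebbp-deleted minus Crebbp-floxed, for each of the 35 genes in blocks by role: black points with 95% intervals use all 6 samples, open diamonds leave out floxed sample 3, and the blue ring marks an adjusted p under 0.05. Cdt1, Rfc3 and Fen1 keep their place without floxed sample 3, while Rrm2, Cdc6, Ccne2 and Uhrf1 move up by 0.49 to 0.61.

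Values within groups varied more for these genes than for genes at large, and more in the floxed group. The median SD over the 35 genes was 0.18 in deleted and 0.26 in floxed samples, where over all genes it was 0.13 in each group. The SDs were not matched for signal: 3 of the 35 genes were dimmer than the median probe set, beside 7604 of all 18193. The floxed SD was the larger in 27 of the 35 genes (77.1%), beside 53.1% of all genes. Deleted sample 3 was the highest of the 6 samples in 6 of the 35 genes (17.1%), beside 26.4% of all genes, and floxed sample 3 in 22 (62.9%), beside 13.1%. Within the deleted group sample 3 led in 26 of the 35 genes (74.3%), beside 46.1% of all genes. These shares are descriptions of single mice and carry no test.

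The excess of sample 3 was unequal across the genes. Deleted sample 3 stood above the mean of deleted samples 1 and 2 by 1.48 log2 units for Rrm2, 0.92 for Tk1, 0.72 for Cdc6 and 0.65 for Ccne1. This excess was 0.64 for Uhrf1, 0.56 for Gmnn, 0.51 for Ccne2 and 0.48 for Mcm10. Its median was 0.27 over the 35 genes and 0.05 over all genes. Floxed sample 3 stood above the mean of floxed samples 1 and 2 by 1.83 for Rrm2, 1.52 for Ccne2, 1.49 for Cdc6, 1.47 for Uhrf1 and 1.34 for Mcm10. In floxed sample 3 the excess was 0.55 for Gmnn, 0.40 for Tk1 and 0.08 for Ccne1. Its median was 0.40 over the 35 genes and −0.02 over all genes. For Cdt1 the excess was −0.23 in deleted sample 3 and 0.03 in floxed sample 3, and for Rfc3 it was −0.12 in deleted sample 3 and 0.08 in floxed sample 3. Cdt1 and Rfc3, the genes with the smallest p between the groups, were thus not among those in which sample 3 was raised, and Fen1 was so to a small extent, by 0.21 in deleted sample 3 and 0.05 in floxed sample 3.

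**Figure D3:**
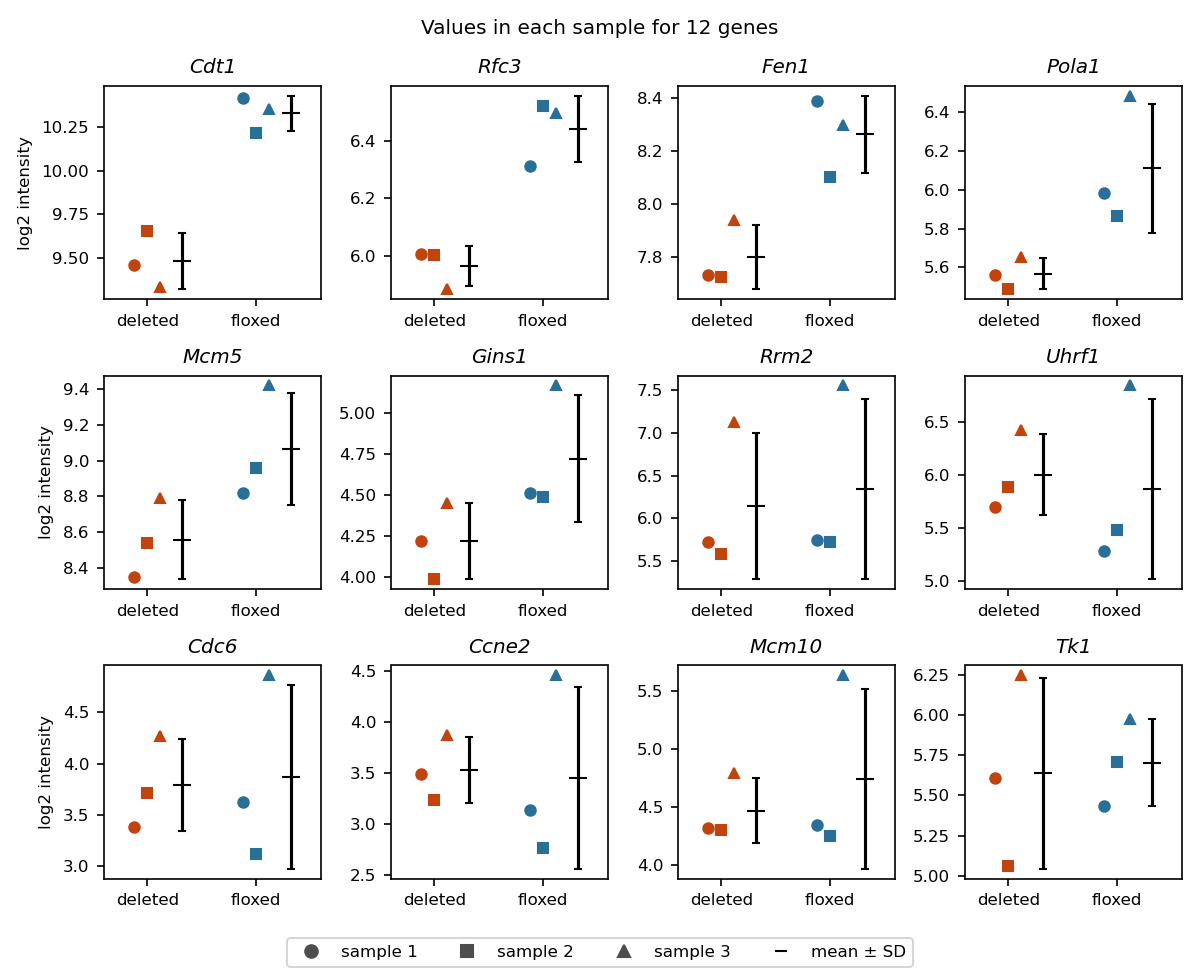
Log2 intensity in every sample for 12 genes, Crebbp-deleted left (orange) and Crebbp-floxed right (blue); the symbol gives the sample number and the bar the mean ± SD (n = 3), and each panel has its own axis. In the first 6 panels (Cdt1 to Gins1) the groups do not overlap; in the other 6 (Rrm2, Uhrf1, Cdc6, Ccne2, Mcm10 and Tk1) the triangle, sample 3, is the highest point of each group.

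Of the wider replication pathway, 92 of 93 listed genes that are not among the 35 were measured, and 0 passed limma's test. In either direction 20 of the 92 had an unadjusted p under 0.05, where 14.8% of all genes did. Of these 13 were lower, 14.1% of the 92 beside 6.84% of all genes. The other 7 were higher, where 1448 of all 18193 genes were. The median difference was −0.05. By smallest p the first was E2f3, an activating E2F, at 5.04, 4.95 and 5.22 in deleted samples, against 5.65, 5.88 and 5.71 in floxed samples. The difference of −0.67 ± 0.11 (SE) did not pass (limma adjusted p = 0.0503). It was −0.36 with the mean of all its probe sets, and its adjusted p ran from 0.027 to 0.173 over the other settings. E2f6, a repressing E2F, went the other way, at 6.66, 6.48 and 6.66 in deleted samples, against 5.92, 6.15 and 5.97 in floxed samples, with a difference of 0.59 (limma adjusted p = 0.059). Tk2, the mitochondrial thymidine kinase, differed by −0.74 (limma adjusted p = 0.059), Cdk6, a kinase of G1, by −0.74 (0.072) and Pold1, the catalytic subunit of the lagging strand polymerase, by −0.58 (0.074). The origin subunit Orc4 differed by 0.46 (0.115), and this sign turned with the mean of all its probe sets (−0.02). In all 6 genes the groups did not overlap, which their choice by smallest p favours. Of the whole list of 92 genes, 17 had the deleted samples below, where 10% of all genes did. In 7 they lay above, where 2039 of all 18193 genes did. The groups overlapped in the other 68, and over all genes 21.2% did not overlap.

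Among these same lists, the 9 genes of origin recognition and licensing had 2 lower and 2 higher at an unadjusted p under 0.05, the 9 of polymerases 2 lower and the 12 of clamp variants and fork protection 2 lower. The 9 of origin firing had 2 lower, the 7 of lagging strand and topology 1 lower, the 11 of nucleotide supply 1 lower and the 8 of chromatin assembly 0. Of all genes 6.84% were lower and 1448 of 18193 higher at such a p. The 27 genes of E2F and RB control had 3 lower and 5 higher. The list holds 5 kinase inhibitors, of which Cdkn1a (0.50), Cdkn1b (0.30) and Cdkn2a (0.79) had positive differences (limma adjusted p = 0.22 each) and Cdkn2c (−0.29) and Cdkn2d (−0.26) negative ones (limma adjusted p = 0.56 and 0.36). The probe set of Cdkn2a was dimmer than the median, and its groups overlapped. Skp2, the ubiquitin ligase subunit that targets Cdkn1b, had a difference of 0.67 (limma adjusted p = 0.245). These 6 were named after their values were seen.

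Levels of other lists were read in the same samples. Genes of G2 and mitosis, which mark cells further along the cycle, were highest in floxed sample 3 in 15 of 15 genes. Relative to the floxed mean this list stood at −0.30, −0.20 and 0.53 in deleted samples, against −0.46, −0.68 and 1.13 in floxed samples, while the 35 replication genes stood at −0.23, −0.26 and 0.03 in deleted samples, against −0.16, −0.17 and 0.33 in floxed samples. Mki67, the usual marker of cycling cells, was 2.69 higher in floxed sample 3 than in the mean of the other floxed samples. Germinal centre B cells, which divide fast, were represented by 6 genes that stood at 0.69, 0.42 and 0.37 in deleted samples, against −0.45, −0.72 and 1.17 in floxed samples. Of the 6, Rgs13 was 3.11 and Gcsam 2.43 higher in floxed sample 3 than in the mean of the other floxed samples, and these genes too were named after their values were seen. Both lists overlapped between the groups, 0 of their members passed limma's test and 0 had an unadjusted p under 0.05. That overlap came from floxed sample 3 alone. In both lists the levels of all deleted samples lay above floxed samples 1 and 2 and below floxed sample 3. The list levels themselves were not tested.

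The plasma cell list (13 genes, of which Jchain rose, 11 had an unadjusted p under 0.05, all higher, and 11 had the deleted samples above) stood at 0.73, 0.88 and 1.83 in deleted samples, against −0.0041, −0.06 and 0.06 in floxed samples, and was highest in deleted sample 3. The macrophage list (14 genes, 0 past limma's test, 9 at an unadjusted p under 0.05, all higher, and 5 with the deleted samples above, where 14.8% of all genes had such a p and 21.2% did not overlap) stood at 1.39, 0.69 and 2.08 in deleted samples, against 0.81, −0.66 and −0.15 in floxed samples. Of the 7 mature B cell genes 1, Cd79a, fell. In this list 4 had an unadjusted p under 0.05, all lower, and 5 had the deleted samples below, beside 6.84% and 10% of all genes. Mature B cell genes stood at −0.44, −0.61 and −0.54 in deleted samples, against −0.09, 0.20 and −0.11 in floxed samples. Ms4a1 read 12.43 to 12.50 in deleted and 12.51 to 12.80 in floxed samples. Lists for T cells (5 genes), NK cells (3), neutrophils (5), erythroid cells (5) and megakaryocytes (4) had 0 members past limma's test and 1 in all, Gp9, at an unadjusted p under 0.05. The mean level of the T cell list ran from 5.18 to 5.35 in deleted and 4.77 to 5.25 in floxed samples, and that of NK cells from 3.70 to 4.27 in deleted and 3.73 to 4.68 in floxed samples. Neutrophil genes ran from 3.81 to 5.84 in deleted and 3.81 to 5.55 in floxed samples, highest in sample 3 of each group. Erythroid genes stood at 3.46, 3.34 and 4.78 in deleted samples, so only deleted sample 3 was raised, and ran from 3.35 to 3.65 in floxed samples. Megakaryocyte genes ran from 4.38 to 4.61 in deleted and 4.28 to 4.82 in floxed samples. Each number of genes counts the measured members of its list. The part of any of these cells in the replication gene values was not tested.

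**Figure D4:**
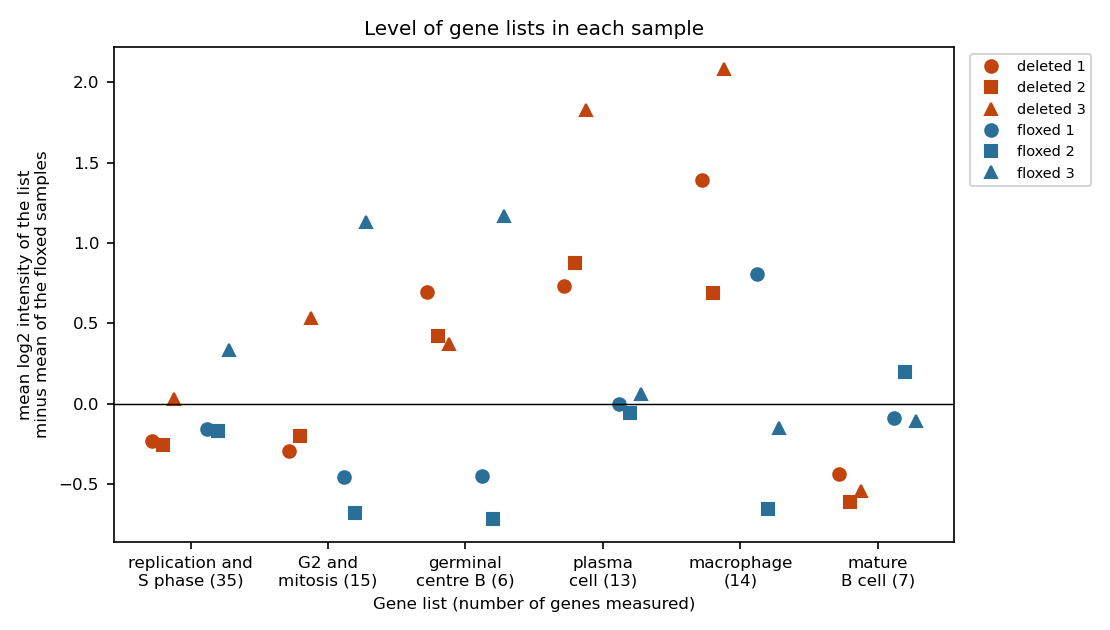
Mean log2 intensity of 6 gene lists in each sample, minus the mean of the floxed samples; orange is Crebbp-deleted, blue Crebbp-floxed, the symbol is the sample number, and the number of genes measured stands under each list. Replication, mitosis and germinal centre genes are all highest in floxed sample 3, and plasma cell and macrophage genes in deleted sample 3.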

How the data were processed

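RNA of 6 samples (3 Crebbp-deleted, 3 Crebbp-floxed, 1 mouse each per the series' design text) was labelled with biotin and hybridised to Affymetrix arrays, per the labels' protocols. Each probe set has 1 intensity on each array in the authors' deposited table, which the submitters' processing notes credit to RMA (version not given in the sources used here); values from 2.96 to 17022 are read as linear intensities, and log2 was taken here with no further normalization. Of 45101 probe sets 34958 had 1 gene symbol in the platform annotation, 932 several and 9211 none, and 64 control probe sets were left out. RefSeq (GRCm38.p6) held the gene ID of 34754 and changed 0 symbols. The brightest probe set by mean stood for each of 18193 genes, with no filter on dim ones. Of the 35 measured members 27 had more than 1 probe set, and in 12 of them the directions differed. Probe sets ending in _s_at or _x_at can read related transcripts.

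Differences between groups were fitted in limma 3.58.1 (R 4.3.3; two-sided, no covariates) and p-values adjusted by Benjamini-Hochberg over all genes at a threshold of 0.05; the test was also checked on simulated data. Values were printed per sample for genes past the test, the 12 members with the smallest p, and those with the highest or lowest signal or the largest SD; of other pathway genes the 6 with the smallest p were named. Members and lists were chosen with earlier results of these data known. Alternatives covered normalization, dim genes, probe set choice, limma settings, sex as a term, the replicate block and leaving out each sample. Xist and the Y-linked Eif2s3y and Kdm5d gave the sex of each mouse: deleted samples 1 and 3 and floxed sample 1 as male, the other 3 as female. Figures were drawn with matplotlib 3.10.9.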

Additional observations from a re-analysis of the deposited data

How the results depend on the processing

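With 3 arrays a group, a difference of about 0.5 log2 units could not be called for most of these genes, and dim genes (Tyms, Cdc6, Ccne2) have uncertain sizes. The direction of Cdt1 was the same in the 16 other settings, from −0.93 to −0.48, but it passed in 9 of them (limma adjusted p from 0.0107 to 0.131). Among replication genes 0 passed with the mean of all probe sets, the replicate block (Cdt1 adjusted p = 0.0568) or sex as a term, and 0 to 1 when each sample was left out. In these fits 4 to 8 of the 35 had an unadjusted p under 0.05, beside 10.9% to 15.6% of all genes. Without floxed sample 3 these were 4 lower and 3 higher. With the replicate block and without deleted sample 2 there was 1 higher each, and in the rest all were lower. At an adjusted p under 0.1 in the main fit there were 2 (Cdt1 and Rfc3). Over all genes the count was 142, and 222 with trend and robust, 291 with array weights, 37 with sex as a term, 449 at an adjusted p under 0.1 and 0 to 226 when each sample was left out (0 without floxed sample 1, with 1990 at an unadjusted p under 0.05, and 226 without floxed sample 3); 16, 45 and 62 passed without deleted samples 1, 2 and 3. Of the other pathway genes 1 passed with arrays centred on their medians, 1 among genes above the median signal, 3 with trend and robust, 3 with array weights and 5 at an adjusted p under 0.1. Chosen after seeing the data, fits within males and within females called 4 and 0 genes in all (2126 and 992 at an unadjusted p under 0.05) and 0 replication genes (4 and 3 at an unadjusted p under 0.05; Cdt1 −1.02 and −0.63), each with a lone sample in 1 group assumed to vary like the others, and without sample 3 of both groups 236 genes, 0 replication genes and 1 other pathway gene passed.

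The sign turned in 17 genes, none past the threshold there. With the mean of all probe sets it turned for Gins2 (−0.0763), Prim1 (0.0939), Rrm1 (−0.0924) and Orc4 (−0.0185), with array weights for Ccne1 (−0.0378), Ccne2 (−0.0309), Gmnn (−0.0386), Lig1 (−0.0214), Mcm6 (−0.0231) and Rrm1 (−0.0116), and with log2 of the intensity plus 16 for Ccne2 (−0.0059). Leaving out each sample gave −0.17 to 0.15 for Ccne1, −0.27 to 0.59 for Ccne2, −0.46 to 0.42 for Cdc6, −0.0043 to 0.29 for Dut, −0.11 to 0.26 for Gmnn, −0.058 to 0.20 for Lig1, −0.52 to 0.17 for Mcm10, −0.0825 to 0.26 for Mcm6, −0.40 to 0.11 for Pole, −0.19 to 0.0596 for Prim1, −0.24 to 0.0476 for Rfc5, −0.0485 to 0.19 for Rrm1, −0.69 to 0.41 for Rrm2, −0.37 to 0.22 for Tk1 and −0.16 to 0.63 for Uhrf1. The median of the 35 differences ran from −0.21 to 0.05 when each sample was left out. Over all genes the deviations of same-numbered samples of the groups had correlations of 0.033, 0.10 and 0.0059. The labels used here state no pairing, and the mice of sample 3 differed in sex. These correlations cannot decide whether same-numbered mice were paired. The replicate block, which called 126 genes, is given as an alternative fit only. The cause of the changes between settings was not tested.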
